A study of Mus musculus with 4 samples.

Results

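The 43 genes described here encode enzymes, regulators and metal-binding proteins of glutathione and antioxidant defence. They comprise the enzymes that make and recycle glutathione, the glutathione S-transferases and peroxidases, the peroxiredoxins and thioredoxin, superoxide dismutases and catalase, the regulators Nfe2l2 and Keap1, the reductases Nqo1, Cbr1 and Cbr3, and the metallothioneins. They were found by symbol among probe sets, groups of short probes for 1 transcript, whose annotation named a single gene. Such a probe set existed for 40 of the 43 genes, and 38 were bright enough to be tested, of 12952 genes tested in all. Prdx1 was named, together with a gene-like locus, on 5 probe sets and was left out by that rule. Prdx5 and Prdx6 had no probe set under their own symbol. Gstt2 and Sod3 lay below the limit of signal, a mean of 27.3.

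RNA came from cultured neuroepithelial cells, the dividing precursors of the embryonic forebrain, of ICR mice. The E11.5 group held 2 arrays of telencephalic cells taken at embryonic day 11.5 and kept in culture for 1 day. The E14.5 group held 2 arrays of cells taken at embryonic day 14.5 and kept in culture for 4 days. All cultures grew in N2 medium with 10 ng/ml basic FGF, a mitogen for such precursors, on polyornithine and fibronectin. No allele or drug set the groups apart; age and days in culture differed together and cannot be told apart. Whether replicates came from separate cultures or litters is not given in the sources used here. The p-values therefore rest only on the spread of these arrays, pooled in part across probe sets, and that spread may be technical. In RNA from mixed cells, fewer cells of a type and less RNA per cell cannot be told apart either.

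Glutathione is a small thiol peptide that glutamate-cysteine ligase (Gclc with its modifier Gclm) and glutathione synthetase (Gss) assemble. Glutathione S-transferases join it to reactive compounds, glutathione peroxidases spend it on peroxides, and glutathione reductase (Gsr) restores the oxidised form. Peroxiredoxins draw on thioredoxin in a parallel system, and metallothioneins hold zinc and copper through their many cysteines. The transcription factor Nrf2, the product of Nfe2l2, is kept low by Keap1 and switches on many of these genes through antioxidant response elements. In the brain, astrocytes are known for high glutathione and metallothionein levels and supply neurons with glutathione precursors.

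Signals differed in overall brightness. Replicates 1 and 2 had trimmed means of 187 and 252 in the E11.5 group and of 154 and 103 in the E14.5 group, and each array was multiplied by 1 factor to a common level. Higher and lower therefore mean relative to the average of the same array. Across probe sets, log2 signals correlated at r = 0.975 and r = 0.969 within the groups and at 0.885 to 0.909 between them. The progenitor genes Sox2, Nes and Vim were bright on every array, with lowest scaled signals of 2572, 721 and 6151. Other cell types differed between the groups. Of the markers tested, 7 of 7 astrocyte, 6 of 6 oligodendrocyte precursor and 8 of 9 microglial genes were higher at E14.5. In turn 7 of 8 neuronal, 3 of 7 meningeal and 2 of 2 erythroid genes were lower. Of all genes tested, 14.3% were higher and 13.6% lower. Other markers were too dim to be tested. Some, such as Gpr17 (mean 2.03 at E11.5) and Hbb-y (12.3 at E14.5), passed the filter on signal through their brighter group alone. The counts follow in part from that filter. Of 11 progenitor genes 5 were higher and 1, Pax6, was lower (507 to 283 by the means). Prom1, Msi1 and Hes1 lay lower on both E14.5 arrays without passing the test. The summed scaled signal of 8 astrocyte markers was 2885 and 3613 at E11.5 and 15482 and 11244 at E14.5. For 10 microglial and macrophage markers it was 275 and 376 at E11.5 and 2166 and 2036 at E14.5, with C1qa, C1qc and Aif1 below the pseudocount of 12.8 at E11.5. The 6 oligodendrocyte precursor markers summed to 859.5 and 622 at E11.5 and 16720 and 19048 at E14.5, with Cspg4 and Gpr17 below it at E11.5. The 8 neuronal markers summed to 11435 and 12095 at E11.5 and 4522 and 4227 at E14.5, and the 5 erythroid markers to 831 and 385 at E11.5 and 38.8 and 65.8 at E14.5. The 8 endothelial and pericyte markers summed to 257 and 186 at E11.5 and 129 and 162 at E14.5, and the 7 meningeal and mesenchymal markers to 1219 and 1221 at E11.5 and 671 and 593 at E14.5. At E14.5, 4 of the endothelial and 4 of the erythroid markers were below the pseudocount. Of the endothelial list 2 genes were bright enough to be tested and 0 passed (0 at an unadjusted p under 0.05 by limma), while its sum was lower on both E14.5 arrays. All of these lists thus moved with the group, as did each difference described here, and their part in it was not tested.

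More of the antioxidant genes were higher than lower in the E14.5 cells. Of the 38 tested, 15 were higher at an adjusted p under 0.05, 39.5% against a background of 14.3% of all genes tested. With each gene read by its brightest tested probe set, Gsr was the single lower one, 2.63% of the 38 against a background of 13.6%. Dimmer probe sets of Prdx2 and Prdx4 were called lower as well. The other 22 members, Prdx2 and Prdx4 among them, did not pass the test by their brightest probe set. The members were chosen with earlier results of these data known, and that choice may bear on these shares. Differences are given as E14.5 minus E11.5 on the log2 scale; their median was 0.42 for the 38 genes and 0.029 for all genes. Both E14.5 arrays lay above both E11.5 arrays for 25 of the 38, against 34.6% of all genes, and below them for 6, against 31% of all genes (the groups of the other 7 overlapped). One of the 38, Gstm2, passed the filter on signal through its E14.5 arrays alone. The higher genes were Cbr3, Gstm1, Mt1, Mt3, Mt2, Mgst1, Nqo1, Gstk1, Txn1, Txnip, Gstm5, Sod2, Cat, Prdx3 and Cbr1. The first 8 of these, in order of size, differed by at least 1 on the log2 scale; 6.47% of all genes were called higher by that much.

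**Figure D1:**
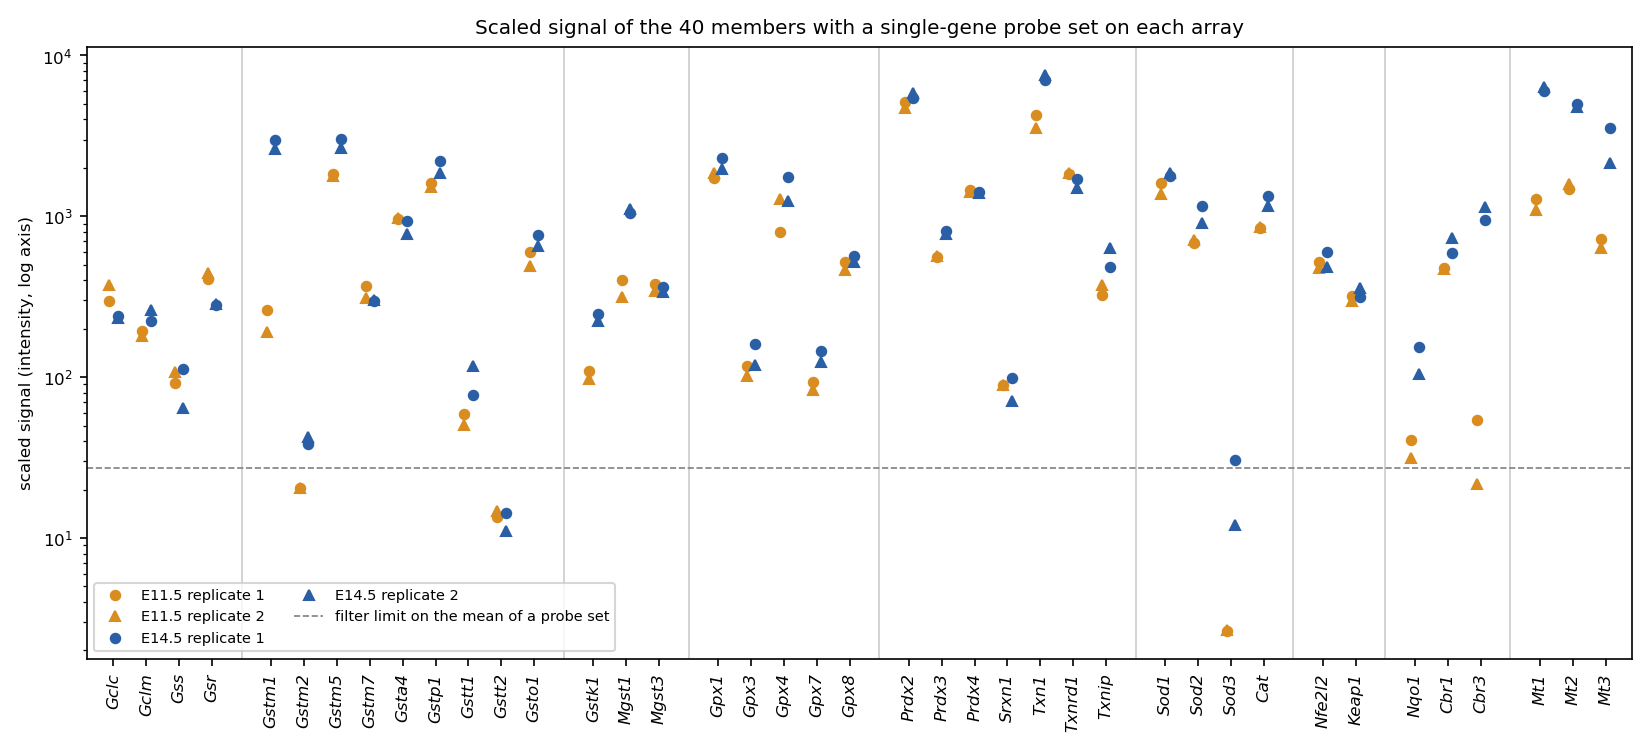
Scaled signal (log axis) of the 40 antioxidant genes with a single-gene probe set on each of the 4 arrays, grouped by role; the dashed line is the filter limit of 27.3 for the mean of a probe set. Cbr3, Gstm1 and the 3 metallothioneins show wide gaps between the E11.5 arrays (orange) and the E14.5 arrays (blue), while Nfe2l2 and Keap1 overlap; heights of different genes cannot be compared, since each probe set has its own brightness.

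The scaling of the arrays bears on the smaller of these differences. With values as deposited, the median of all genes was -0.67, a shift of -0.70, since the E14.5 arrays were dimmer. On that scale 4 members were called higher, namely Cbr3 (3.79), Gstm1 (2.81), Mt1 (1.59) and Mt3 (1.23). Gstm5, Prdx3, Txnip, Sod2, Cat and Cbr1 turned negative there. All 15 members called higher lay above the median of all genes on the unscaled arrays. Scaling moves all genes of an array nearly alike, so this follows from the scaled result and is no separate check. Of all genes called, 10.5% were higher without scaling and 51.3% with it. Without a trend of variance on signal, 9 members were called higher and 0 lower (1150 and 1101 of all genes). By limma with that setting, Gstm5, Prdx3, Txnip, Sod2, Cat and Cbr1 lost their calls, with adjusted p from 0.0623 to 0.154, as did Gsr (0.0814).

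Of 4 tested genes of glutathione synthesis and recycling none rose, and Gsr fell (0% and 25%, beside 14.3% and 13.6% of all genes). With only 4 genes, these counts cannot be told apart from those shares. Gclc, the catalytic subunit of glutamate-cysteine ligase, had scaled signals of 297 and 373 at E11.5 and 240.1 and 235 at E14.5 (values are given in the order replicate 1, replicate 2 throughout). Each ± here and below is the SE by limma, from 2 arrays in each group. limma pulls the variance of each probe set toward that of probe sets of similar signal. Both E14.5 arrays of Gclc were lower, and the log2 difference was -0.47 ± 0.17. It did not pass the test (limma adjusted p = 0.0793, 95% interval -0.85 to -0.081 before adjustment). Without E11.5 replicate 1 it passed as lower (-0.63). Gclm, the modifier subunit, had 192 and 179 at E11.5 and 224 and 261 at E14.5. Here both E14.5 arrays were higher, by 0.36 ± 0.18, and the test was not passed either (adjusted p = 0.178, interval -0.034 to 0.75); it passed once its 2 probe sets were averaged (0.50). The ligase subunits thus had differences of opposite sign. Gss, the synthetase, stood at 92.1 and 108 at E11.5 and 112 and 64.2 at E14.5, with overlapping groups (-0.20 ± 0.27); its sign turned without E14.5 replicate 2 (0.15). Gsr, which regenerates reduced glutathione, had 407 and 442 at E11.5 and 282 and 284 at E14.5. It fell by 0.56 ± 0.15 on the log2 scale (adjusted p = 0.0224), and the groups did not overlap. A further probe set of Gsr differed by -0.49 ± 0.17 and did not pass (limma adjusted p = 0.0579). The call of Gsr was lost when E11.5 replicate 2 (-0.51) or either E14.5 array (-0.56 and -0.57) was left out, and then 0 members were called lower by limma. Leaving out E11.5 replicate 1 gave 2, Gsr and Gclc. At an unadjusted p under 0.05, 2 members were lower in the fit with all arrays.

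Among the cytosolic glutathione S-transferases, which join glutathione to electrophiles, 2 of 8 tested genes rose and none fell. The share that rose was 25%, beside 14.3% of all genes. Gstm1, a mu-class transferase abundant in astrocytes, had scaled signals of 262 and 191 at E11.5 and 2997 and 2605 at E14.5. Every E14.5 array was far above the E11.5 arrays, a 12.4-fold ratio of means and a log2 difference of 3.57 ± 0.17 (adjusted p = 9.6e-07). Its 3 further probe sets were called higher as well, at 3.63 ± 0.16, 2.71 ± 0.30 and 1.64 ± 0.26. Gstm5, another mu-class gene, had 1826 and 1793 at E11.5 and 3017 and 2671 at E14.5. The groups did not overlap and the rise was smaller, 0.65 ± 0.12 (adjusted p = 0.0038); it turned to -0.13 without scaling. Its call was lost without the variance trend. Gstm2 (20.6 and 20.3 at E11.5 and 38.3 and 42.4 at E14.5) had a difference of 0.68 ± 0.34 and did not pass. Gstm7 had a difference of -0.18 ± 0.16 and did not pass. Mu-class genes are close paralogues in 1 genomic cluster, in which Gstm1 and Gstm2 lie next to each other, so probes of 1 may read another and the split among them is uncertain.

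The other cytosolic transferases did not pass the test. Gstp1, the pi-class enzyme, had a difference of 0.37 ± 0.13 (adjusted p = 0.0674); its probe set may also read the near-identical copy Gstp2. The theta-class Gstt1 had 0.68 ± 0.27, the omega-class Gsto1 0.36 ± 0.16 and Gsta4, which clears the lipid peroxidation product hydroxynonenal, -0.19 ± 0.14. Gstt1 passed without E14.5 replicate 1 (0.95) and was 0.41 without E14.5 replicate 2. Gsto1 passed without E11.5 replicate 1 (0.50), and was 0.22 without E11.5 replicate 2 and 0.089 as the average of its probe sets. Gstt2 was below the filter, at 13.4 and 14.8 at E11.5 and 14.3 and 11.1 at E14.5.

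Of the transferases outside the cytosol, 2 of 3 rose (66.7%, beside 14.3% of all genes). Mgst1, a microsomal enzyme that also reduces lipid peroxides, had 403 and 314 at E11.5 and 1044 and 1106 at E14.5. Its E14.5 arrays agreed closely and both lay far above the E11.5 arrays, with a log2 difference of 1.56 ± 0.16 (adjusted p = 8.32e-05). Gstk1, the kappa-class enzyme of mitochondria and peroxisomes, had 109 and 97.9 at E11.5 and 246 and 223 at E14.5. Groups were apart by 1.09 ± 0.19 (adjusted p = 0.00228). Mgst3, a relative of Mgst1 with peroxidase activity, had 381 and 344 at E11.5 and 363 and 336 at E14.5. These overlapped, and the difference was -0.049 ± 0.15 with an interval of -0.39 to 0.29; leaving out E11.5 replicate 1 (0.022) or E14.5 replicate 2 (0.0038) made it positive.

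None of the 5 glutathione peroxidases passed the test, although each had a positive difference on scaled arrays. Of all genes 14.3% were called higher, and 6791 of 12952 had a positive difference. With only 5 genes, a count of 0 is near that share. At an unadjusted limma p under 0.05, 2 of the peroxidases differed. Gpx1, the cytosolic selenoenzyme that removes hydrogen peroxide, had 1722 and 1848 at E11.5 and 2313 and 1967 at E14.5. The E14.5 arrays were slightly higher, by 0.26 ± 0.13 (adjusted p = 0.194, interval -0.035 to 0.55). Gpx4, which protects membrane lipids, differed by 0.54 ± 0.22 at its brightest probe set and by 0.15 ± 0.13 at another. The brightest one passed when replicate 2 of either group was left out (0.88 for E11.5, 0.79 for E14.5). Leaving out replicate 1 of either group lowered it (0.21 for E11.5, 0.29 for E14.5). Its E11.5 arrays were 802 and 1282. The secreted Gpx3 (0.30 ± 0.22) and the endoplasmic reticulum enzymes Gpx7 (0.54 ± 0.21) and Gpx8 (0.14 ± 0.15) did not pass either. Without scaling all 5 differences were negative, from -0.62 to -0.15, beside the median of -0.67 for all genes.

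**Figure D2:**
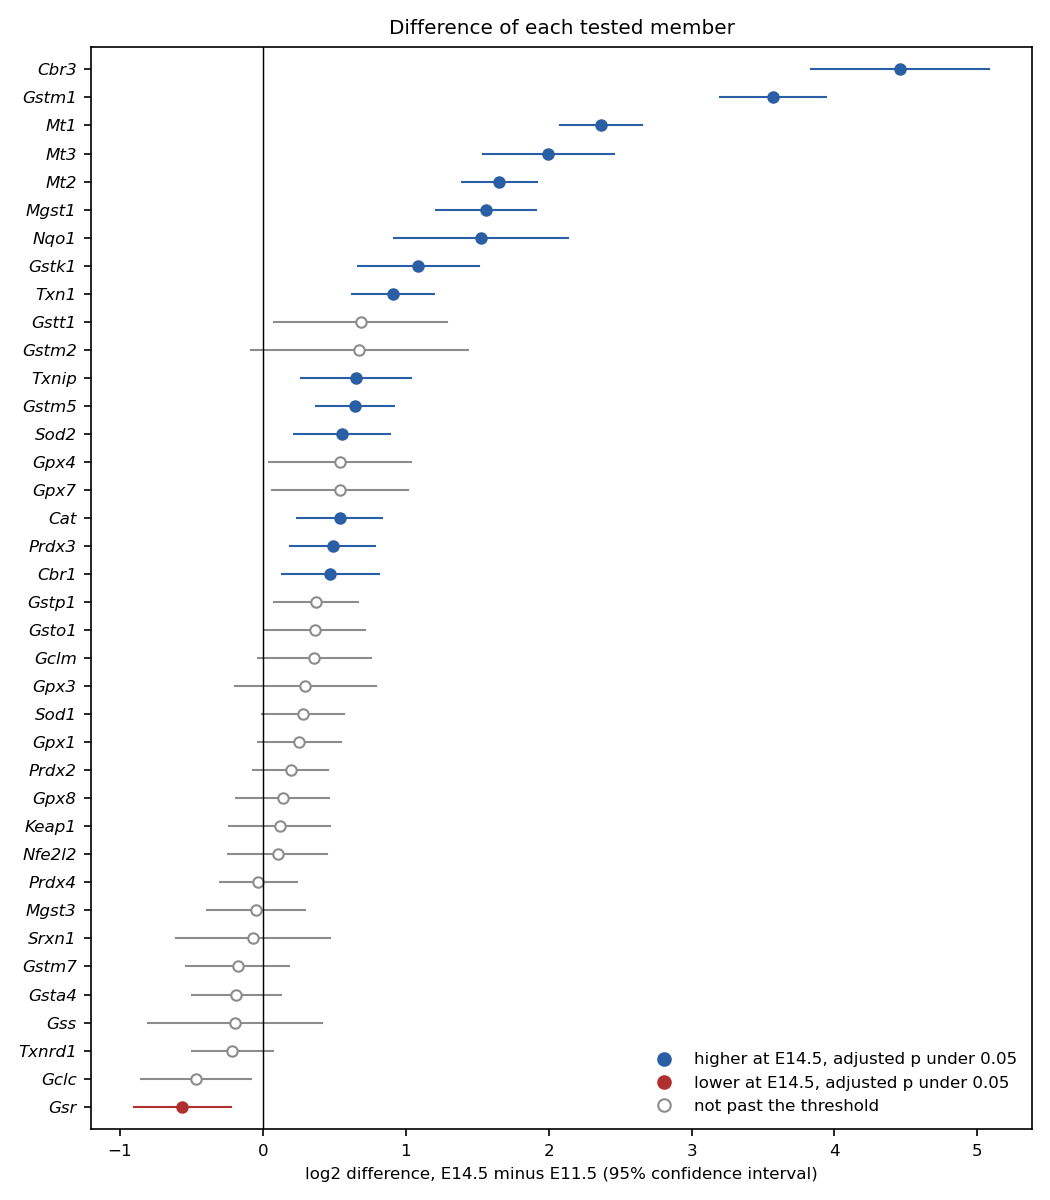
Log2 difference, E14.5 minus E11.5, of the 38 tested antioxidant genes with 95% confidence intervals before adjustment; filled points passed an adjusted p of 0.05 in the limma fit. Cbr3 (4.46) and Gstm1 (3.57) lead 15 higher genes and Gsr (-0.56) is the lower one; Gstm5, Prdx3, Txnip, Sod2, Cat and Cbr1 change sign when arrays are not scaled.

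In the thioredoxin system 3 of 7 tested genes rose (42.9%, beside 14.3% of all genes). Txn1, the small dithiol protein that reduces peroxiredoxins and ribonucleotide reductase, had 4268 and 3540 at E11.5 and 7034 and 7582 at E14.5. Both E14.5 arrays were above both E11.5 arrays, by 0.91 ± 0.13 (adjusted p = 0.000709). The size depended on processing: it was 0.58 under quantile normalization and 0.45 with its probe sets averaged, since a dimmer probe set differed by -0.0068 ± 0.18. Txnrd1, the selenoprotein reductase that recharges thioredoxin, differed by -0.21 ± 0.13 and did not pass (interval -0.49 to 0.067). Txnip, which binds and inhibits thioredoxin and limits glucose uptake, rose by 0.65 ± 0.17 (adjusted p = 0.0201). Averaging its probe sets (0.56) or leaving out E14.5 replicate 2 (0.47) lost the call, as did a fit without the variance trend.

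Prdx3, the mitochondrial peroxiredoxin, rose by 0.49 ± 0.13 (adjusted p = 0.0235). That call was lost when E11.5 replicate 1 (0.48) or either E14.5 array (0.46 and 0.51) was left out, and without the variance trend. Prdx2, a cytosolic peroxiredoxin also abundant in red cells, differed by 0.19 ± 0.12 and did not pass; its sign turned under quantile normalization (-0.16). A second probe set of Prdx2 fell, with 220.1 and 244 at E11.5 and 109.6 and 123 at E14.5 (-0.92 ± 0.19, adjusted p = 0.00544). With both averaged, Prdx2 was called lower (-0.36). Prdx4, the peroxiredoxin of the endoplasmic reticulum, had a brightest probe set with signals from 1390 to 1451 (-0.033 ± 0.12, interval -0.30 to 0.24). A second probe set of Prdx4 had 731 and 753 at E11.5 and 319 and 394 at E14.5. It fell by 1.04 on the log2 scale (adjusted p = 0.000907), and another differed by 0.15 ± 0.19. Srxn1, the sulfiredoxin that repairs overoxidised peroxiredoxins and a classic Nrf2 target, had a difference of -0.069 ± 0.24 with overlapping groups. Averaging its probe sets (0.12) or leaving out E14.5 replicate 2 (0.14) made it positive.

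**Figure D3:**
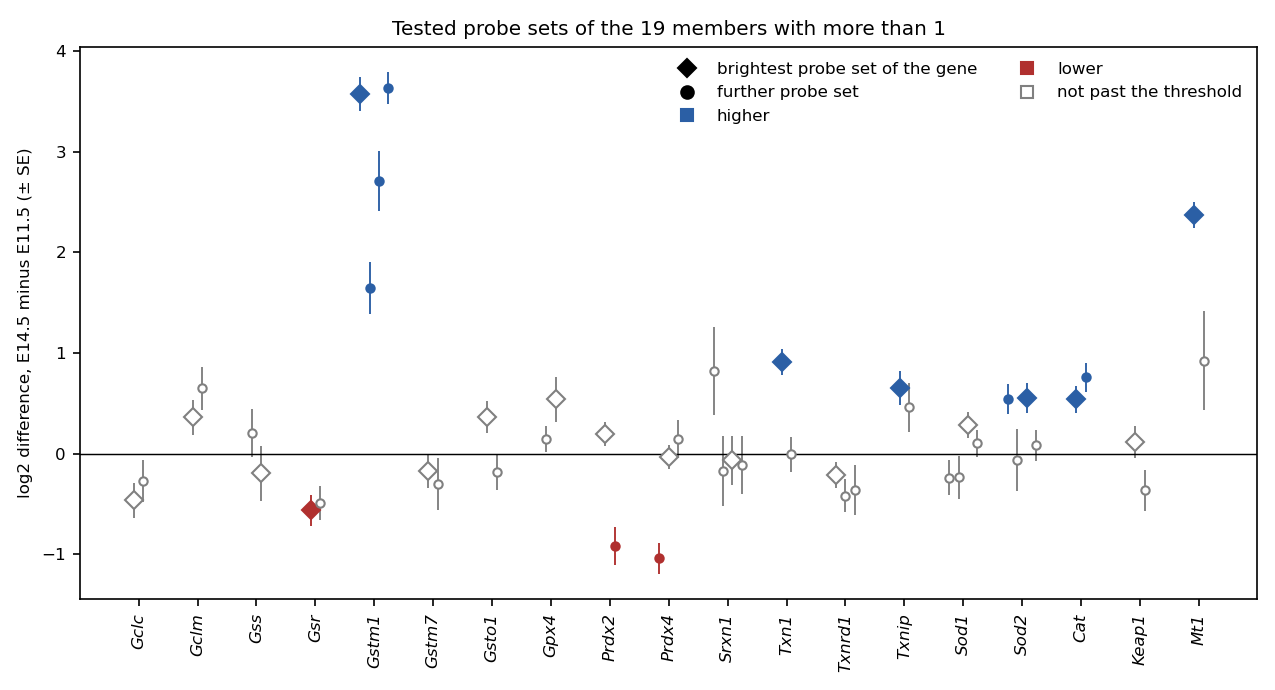
Log2 difference ± limma SE (n = 2 arrays per group) of every tested probe set of the 19 antioxidant genes with more than 1. The SE pools variance in part across probe sets. Diamonds mark the brightest probe set, which represents the gene. All 4 of Gstm1 were called higher, whereas Prdx2 and Prdx4 each had a dimmer probe set that was called lower while the brightest did not pass.

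Probe sets of 1 gene did not always give the same call. The 19 genes with more than 1 tested probe set had 29 further ones, of which 21 had the call of the representative. In 6 cases the representative was called and the further probe set was not, and in 2 the reverse held, those of Prdx2 and Prdx4. In 0 cases were a representative and a further probe set called in opposite directions by limma.

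Superoxide dismutases and catalase, which convert superoxide to hydrogen peroxide and then to water, held 2 rises among 3 tested genes. That was 66.7%, beside 14.3% of all genes. Sod1, the cytosolic copper-zinc enzyme, had 1613 and 1383 at E11.5 and 1783 and 1849 at E14.5. The E14.5 arrays were higher but the difference, 0.28 ± 0.13, did not pass (adjusted p = 0.153), and it turned to -0.024 with probe sets averaged. Sod2, the mitochondrial manganese enzyme, rose by 0.55 ± 0.15 (adjusted p = 0.0235). This call was lost without E14.5 replicate 1 (0.38), with probe sets averaged (0.28), without a filter on signal and without the variance trend. A further probe set of Sod2 was called higher (0.54 ± 0.15), while others differed by 0.082 ± 0.15 and -0.063 ± 0.31 and did not pass. Cat, the peroxisomal catalase, rose by 0.54 ± 0.13 (adjusted p = 0.0149), and a further probe set by 0.76 ± 0.14; the call was lost without E14.5 replicate 1 (0.44) and without the variance trend. Both turned negative without scaling (-0.22 and -0.23). The extracellular Sod3 was dim, with 2.64 and 2.69 at E11.5 and 30.5 and 12.1 at E14.5. It was higher on both E14.5 arrays but below the filter, and without a filter its difference of 1.09 ± 0.34 did not pass (adjusted p = 0.0954).

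Neither regulator of the pathway passed the test, which 27.8% of all genes passed in either direction. Nfe2l2, which encodes Nrf2, had 519 and 478 at E11.5 and 596 and 483 at E14.5. The groups overlapped, and the difference was 0.10 ± 0.16 with an interval of -0.24 to 0.45; its sign turned without E14.5 replicate 1 (-0.044). Keap1, the adaptor that directs Nrf2 to degradation, had 319 and 297 at E11.5 and 315 and 356 at E14.5. These overlapped too (0.12 ± 0.16, interval -0.24 to 0.47), and averaging its probe sets gave -0.13. Nrf2 is regulated largely through the stability of its protein, which arrays do not measure.

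All 3 reductases of quinones and carbonyls were higher at E14.5 on scaled arrays (100%, beside 14.3% of all genes), with Cbr1 at -0.29 without scaling. Cbr3, a carbonyl reductase, had 53.9 and 21.5 at E11.5 and 951 and 1140 at E14.5. Both E14.5 arrays were far above both E11.5 arrays, a 27.7-fold ratio of means and a log2 difference of 4.46 ± 0.28 (adjusted p = 4.36e-06). The E11.5 replicates themselves differed more than 2-fold, and the difference ran from 3.98 to 4.94 as single arrays were left out and from 3.79 to 4.86 with larger and smaller pseudocounts. Cbr1, its neighbour on the chromosome and a carbonyl reductase of wider substrate range, had 480.1 and 469 at E11.5 and 595 and 737 at E14.5. Its rise was 0.47 ± 0.15, just past the threshold (adjusted p = 0.0489). The call of Cbr1 was lost when either E11.5 array (0.49 and 0.45) or E14.5 replicate 2 (0.32) was left out. It was also lost with the smaller pseudocount, without a filter on signal and without the variance trend (adjusted p = 0.0534, 0.0831 and 0.154 by limma). Nqo1, the quinone reductase often read as a marker of Nrf2 activity, had 40.5 and 31.5 at E11.5 and 153 and 105 at E14.5. It was low at E11.5 and higher on both E14.5 arrays, by 1.53 ± 0.27 (adjusted p = 0.00273).

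All 3 metallothioneins rose (100%, beside 14.3% of all genes), and their differences were positive under each scaling of the arrays. Mt1 had 1288 and 1087 at E11.5 and 5980 and 6353 at E14.5. Its E14.5 arrays lay 5.19 times as high by the means (2.37 ± 0.13, adjusted p = 2.04e-06). The probe set of Mt1 can match several transcripts, and a dim second one, at 31.4 and 3.82 at E11.5 and 46.3 and 31.9 at E14.5, differed by 0.92 ± 0.49 and did not pass. Mt2 had 1487 and 1594 at E11.5 and 4985 and 4771 at E14.5. Replicates agreed closely and the groups were far apart (3.17-fold, 1.65 ± 0.12, adjusted p = 1e-05). Mt3, the metallothionein known as growth inhibitory factor of brain, had 724 and 636 at E11.5 and 3538 and 2136 at E14.5. Its E14.5 replicates differed from each other, yet both lay above both E11.5 arrays (4.17-fold, 2.00 ± 0.21, adjusted p = 9.98e-05). Without scaling Mt2 kept its direction (0.88) but not its call. Mt3, Mt2 and Mt1 follow one another in the order of protein-coding genes.

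The metallothionein genes Mt1 and Mt2 are switched on by zinc through metal response elements, bound by the factor Mtf1. The promoters of all members were searched for the core of that element, TGCGCNC or TGCACNC, on both strands. Whether zinc or Mtf1 had a part in the differences was not tested. The windows are those of RefSeq on GRCm38.p6, 250 bases before to 50 after the annotated start. A core was found in 25.7% of 32851 windows, and 3 or more in 1.97%. By gene it was found for 28.2% of all genes and for 12 of the 37 members with a window (32.4%). Of these 12 members 7 were called higher and 5 did not pass the test. Called higher were 39.5% of all tested members and 14.3% of all genes. Mt2 held 4 and Mt1 held 3 in their windows, and Mt3 held 1. Gclm, which did not pass, held 3 as well. The stretch before the start of Mt2 is shown for its 3 cores, in capitals, of which the one nearest the start reads on the opposite strand; the fourth lies after the start.
Mt2 (chr8:94172368-94172617, + strand): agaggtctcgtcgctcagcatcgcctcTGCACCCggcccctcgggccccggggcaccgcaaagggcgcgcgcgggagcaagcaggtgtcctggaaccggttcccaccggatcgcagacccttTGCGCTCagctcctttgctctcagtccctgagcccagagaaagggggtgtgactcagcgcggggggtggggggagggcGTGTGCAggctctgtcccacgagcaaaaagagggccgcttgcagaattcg
Relative to the annotated start of Mt1, its cores lie 23 bases before and 2 and 20 bases after. The start used in these cells was not measured, so positions and counts hold only for these windows. Each core is shown with 10 bases on either side.
Mt1 (chr8:94179056-94179082, + strand): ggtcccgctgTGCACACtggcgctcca
Mt1 (chr8:94179081-94179107, + strand): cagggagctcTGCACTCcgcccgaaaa
Mt1 (chr8:94179099-94179125, + strand): gcccgaaaagTGCGCTCggctctgcca
A match is a string of letters and not a measured binding site.

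Antioxidant response elements were searched in the same way, as the core TGACNNNGC on both strands. It occurred in 12.4% of windows, and in 14% of genes in at least 1 window. Of the 37 members with a window, 10 had a match (27%). Among the 10, Gstm5, Mgst1 and Mt2 were called higher, Prdx1 was not measured, and the other 6 did not pass the test. Of all tested members 39.5% were called higher, and of all genes 14.3%. The windows of Cbr3, Gstm1 and Nqo1 held no match. Sequence further than 250 bases before or 50 after the start was not searched, so an element there would be missed. The matches of the genes that rose, and of 4 genes of the Nrf2 pathway that did not pass (chosen with their values known), are shown with 10 bases on either side. Each is turned so that the core reads left to right in capitals, and the match of Srxn1 lies 28 bases after its start. That of Gclm overlaps a metal response element core.
Mt2 (chr8:94172529-94172557, + strand): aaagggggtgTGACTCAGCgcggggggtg
Mgst1 (chr6:138140461-138140489, - strand): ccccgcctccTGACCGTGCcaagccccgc
Gstm5 (chr3:107895802-107895830, + strand): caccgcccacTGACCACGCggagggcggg
Gclm (chr3:122245413-122245441, - strand): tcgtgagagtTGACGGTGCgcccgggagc
Txnrd1 (chr10:82859104-82859132, - strand): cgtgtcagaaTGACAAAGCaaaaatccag
Srxn1 (chr2:152105542-152105570, - strand): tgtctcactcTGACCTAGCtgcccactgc
Nfe2l2 (chr2:75704885-75704913, - strand): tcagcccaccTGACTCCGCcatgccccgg
The core of Mt2 matched TGACTCAGC, the same letters as that of the unmeasured Prdx1.

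Other genes of these pathways, 104 in 4 lists, gave 83 tested. Of these 28 were higher and 3 lower, 33.7% and 3.61%, beside 14.3% and 13.6% of all genes. The lists too were chosen with earlier results of these data known, so these shares are no separate check on the members. Without scaling 3 of the other genes were higher. Without E14.5 replicate 1 the lower ones numbered 1.

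Of 23 other Nrf2 targets and regulators 10 were higher (43.5%) and none was lower, with a median log2 difference of 0.31. Of all genes 14.3% were higher and 13.6% lower. Ephx1, the epoxide hydrolase that opens reactive epoxides, rose from a mean of 149 to 839 (2.40 ± 0.16, adjusted p = 5.54e-06). The biliverdin reductase Blvrb went from 52.2 to 235 (1.93 ± 0.22) and the heme oxygenase Hmox1 from 61.1 to 219 (1.63 ± 0.24). Hmox1 is also strongly expressed by macrophages. Of 25 thioredoxin and redox repair genes 9 were higher and 2 lower (36% and 8%, median 0.34). Selenop, a selenium carrier secreted by astrocytes among others, rose from 313 to 1053 (1.71 ± 0.14) and Sesn3, a sestrin, from 1145 to 3234 (1.49 ± 0.15). Nxn, nucleoredoxin, fell from 463 to 216 (-1.06 ± 0.16).

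Of 23 other genes of glutathione turnover and transport 4 were higher and 1 lower (17.4% and 4.35%, median 0.17). The share higher was near the 14.3% of all genes. Slc1a1, a transporter that brings in glutamate and cysteine, rose from 63.2 to 334 (2.20 ± 0.22). The export pump Abcc4 went from 54.9 to 163 (1.38 ± 0.22) and Ggt5, a gamma-glutamyl transferase that acts on glutathione outside the cell, from 152 to 301 (0.93 ± 0.23, lost without E14.5 replicate 2 at 0.68). Slc7a11, the cystine transporter, was below the filter. Of 12 partners of the metallothioneins in metal handling 5 were higher (41.7%) and none was lower (median 0.38). The zinc exporters Slc30a10 (32.4 to 136; 1.72 ± 0.24) and Slc30a1 (217 to 440.5; 0.97 ± 0.17, and 0.56 with probe sets averaged) rose, as did Ccs (0.82 ± 0.16), the chaperone that loads copper into Sod1. Mtf1 differed by 0.26 ± 0.20 and did not pass.

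**Figure D4:**
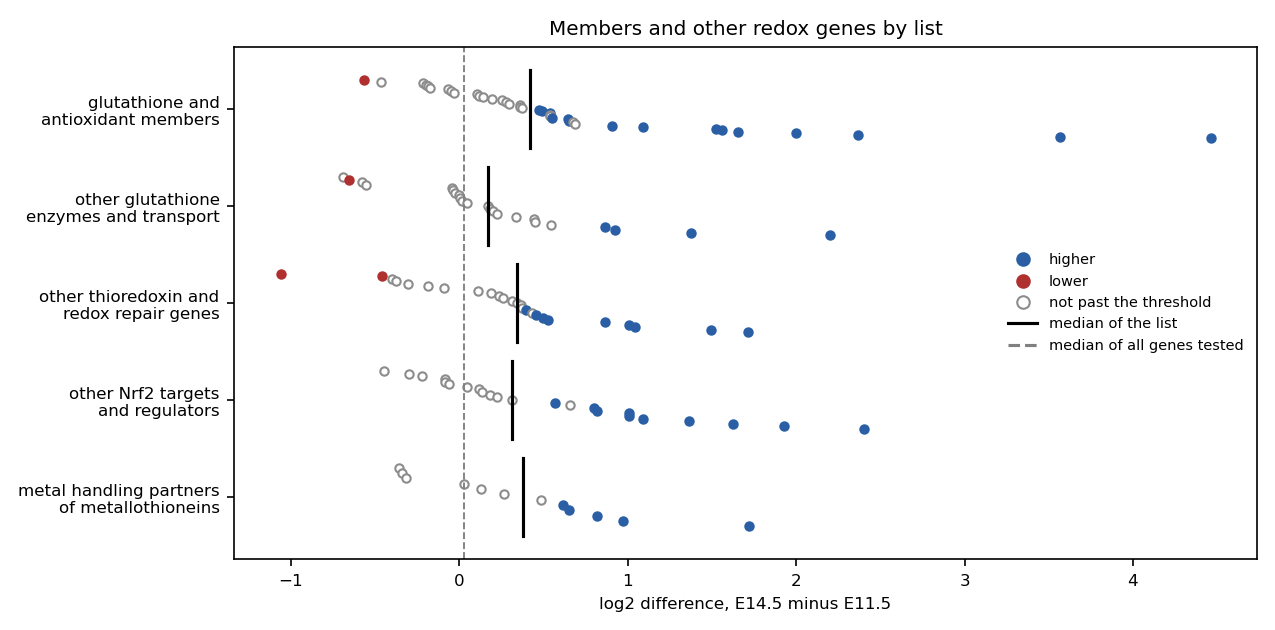
Log2 difference, E14.5 minus E11.5, of each tested gene among the antioxidant members and in 4 lists of other redox genes; black bars are list medians and the dashed line is the median of all genes tested (0.029). Medians run from 0.17 to 0.42 on scaled arrays, and without scaling 4 members and 3 of the other genes were called higher.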

How the data were processed

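Total RNA (5 µg) was labelled and hybridised to 4 arrays, per the labels' protocols. What the authors deposited is 1 intensity per probe set on a linear scale, made with GCOS per the submitters' processing notes, with its version not given in the sources used here. Of 45037 probe sets without controls, 34945 carried 1 gene symbol. Each array was scaled so that its 2% trimmed mean became 174. The filter kept 27022 probe sets whose mean reached the 40th percentile (27.3), and log2 was taken after adding a pseudocount of 12.8, the 25th percentile, which shrinks differences of dim genes. limma 3.58.1 in R 4.3.3 (lmFit, eBayes with trend) was run on all of them, with Benjamini-Hochberg adjustment and a threshold of 0.05. The brightest tested probe set stood for a gene. Tested on simulated data for this comparison (27022 probe sets), the fit recovered 93% of 100 changes of 1 and 100% of 100 changes of 2 on the log2 scale. Of its calls, 4.46% fell on unchanged probe sets. The changed probe sets were drawn only from those above the median signal, so recovery of dim genes was not tested. The noise was drawn from the variances of the fit itself.

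The members and lists were chosen with earlier results of these data known. Values per array are given for members called with a difference of at least 1, for the metallothioneins, Nfe2l2, Keap1, Gclc and Gclm, and for the brightest gene of each role; of the other redox genes, the 3 called ones of each list with the largest differences are named. Values per array of Gss, Gstm2, Gstt2, Mgst3, Sod3 and of further probe sets, and the mentions of Mtf1 and Slc7a11, were added after values were seen, as was the alternative without probe sets that can match several transcripts. The precision is limited by the number of arrays, 2 per group.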

Additional observations from a re-analysis of the deposited data

How the results depend on the processing

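Of the 16 calls among members, 4 (Cbr3, Gstm1, Mt1 and Mt3) held in every alternative, except that of Mt1 without probe sets that can match several transcripts, and Gstk1, Mgst1, Txn1, Nqo1 and Mt2 in all of these but the unscaled one. Counts of members higher ran from 13 to 15 as single arrays were left out, were 4 without scaling and 9 without the variance trend, and lay from 13 to 15 in the other settings. Members lower numbered 0 to 2 as arrays were left out, 0 without the trend and 2 with probe sets averaged. All genes higher numbered 1850 (255 without scaling, 1150 without the trend) and lower 1756 (1101 without the trend). Other redox genes higher numbered 28 (3 without scaling) and lower 3 (1 without a filter, 1 without the trend, 7 with probe sets averaged, 1 to 4 as arrays were left out). Without probe sets that can match several transcripts, a setting chosen after seeing the data, 14 members were higher and Mt1 (0.92) was not.

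Without scaling the sign turned for Gclm (-0.37), Gstm5 (-0.13), Gstp1 (-0.40), Gsto1 (-0.40), Gpx1 (-0.52), Gpx3 (-0.40), Gpx4 (-0.23), Gpx7 (-0.15), Gpx8 (-0.62), Prdx2 (-0.58), Prdx3 (-0.28), Txnip (-0.11), Sod1 (-0.49), Sod2 (-0.22), Cat (-0.23), Nfe2l2 (-0.65), Keap1 (-0.63), Cbr1 (-0.29), Sox2 (-0.18), Nes (-0.43) and Vim (-0.49). This follows the shift of all genes by -0.70. With probe sets averaged it turned for Gss (0.0042), Prdx2 (-0.36), Srxn1 (0.12), Sod1 (-0.024), Keap1 (-0.13) and Nes (-0.15), and under quantile normalization for Prdx2 (-0.16) and Vim (-0.15); the cause was not tested. As arrays were left out, Gss ran from -0.55 to 0.15, Mgst3 from -0.12 to 0.022, Srxn1 from -0.27 to 0.14 and Nfe2l2 from -0.044 to 0.25.

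Same-numbered arrays did not deviate together (correlation of deviations 0.0041), so the numbers were not taken as pairs. With the replicate block 15 members were higher and 1 lower, with 2016 and 1933 of all genes and 30 and 3 of the other redox genes; no call of a member changed. Genes near the pseudocount, such as Sod3, Gstt2 and Gstm2, cannot be ranked by these arrays.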
